A study of Mus musculus with 20 samples.

Results

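MHC class II molecules carry peptides from endosomes to the cell surface, where CD4+ T cells read them. An alpha and a beta chain (H2-Aa with H2-Ab1 for I-A) pair around the invariant chain Cd74, which blocks the groove and steers the complex to endosomes. There proteases degrade Cd74, and the H2-DM heterodimer (H2-DMa with H2-DMb1) exchanges the last piece of it for peptide, while H2-O (H2-Oa with H2-Ob) holds H2-DM back. Ciita is the coactivator that sets transcription of these genes, mainly in response to interferon-gamma, through a complex of RFX, CREB and NF-Y proteins on their promoters. In the healthy brain these genes are low, and microglia and the macrophages and dendritic cells of the brain borders are the cells known to raise them.

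The 7 genes Cd74, H2-Aa, H2-Ab1, H2-Eb1, H2-DMa, H2-DMb1 and Ciita were taken by name from the counts table of 39056 genes, and all 7 were among the 16107 genes that passed the filter on low counts. RNA came from the left hippocampus of 20 female mice, 1 library for each mouse, with 5 mice in each of 4 groups that combined miR-34a+/+ (WT) or a constitutive miR-34a-/- deletion in the whole body (KO) with the presence (Tg-SwDI) or absence (Non-Tg) of a human APP transgene with the Swedish, Dutch and Iowa mutations, driven by the neuronal Thy1 promoter on a C57BL/6 background. Behaviour had been tested at 12 months of age, before tissue was taken. The smallest library held 19549622 counts on genes and the largest 21066868, and levels are given as CPM, a gene's counts scaled to library size with TMM factors. Thy1, whose sequences drive the transgene, measured 684 to 769 CPM without the transgene and 1903 to 3316 CPM with it, while miR-34a itself was not analysed here, so the KO label was not checked at its target.

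Some single libraries stood apart before any comparison. KO Tg-SwDI replicate 8 had 14.6% of its counts on mitochondrial genes against 6.94% to 8.76% in the other libraries. Choroid plexus markers (15 genes, mostly Ttr) differed widely within groups, with a summed level between 276 and 735 CPM for all 5 KO Non-Tg mice, 312 and 464 CPM in WT Non-Tg replicates 6 and 3, 408 CPM in WT Tg-SwDI replicate 7 and 426 CPM in KO Tg-SwDI replicate 2, and 3065 to 6904 CPM in the other mice. Results are therefore given below with these mice in view.

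In the genome annotation (GENCODE M21, GRCm38) 5 of the 7 genes lie in the MHC on chromosome 17. H2-DMa spans chr17:34119541-34139101, H2-DMb1 chr17:34153072-34160230, H2-Ab1 chr17:34257689-34269419 and H2-Eb1 chr17:34305867-34316674, all on the plus strand, and H2-Aa spans chr17:34282744-34287823 on the minus strand. Ciita lies at chr16:10480059-10528418 on the plus strand, and Cd74 also lies outside the MHC. RefSeq promoters (GRCm38.p6) were found for 4 of the 7 genes, namely H2-Aa, H2-Eb1, H2-DMa and H2-DMb1.

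Class II promoters are known for an X box, bound by RFX and CREB, set a short and fixed distance upstream of a Y box, bound by NF-Y, and these sequences are shown because Ciita acts through that pair. In the 250 bases before the start, the Y box core ATTGG, searched on both strands, was present in the promoters of all 4 genes (in H2-DMa only at the second of its 2 starts) and in 33.8% of all 32851 promoters. The STAT site (TTC, any 3 bases and GAA) was found in none of the 4 genes, but in H2-DMb2, against 7.02% of all promoters. A stretch of AAC, any 3 bases and TGATG, searched on both strands, was found in H2-Eb1 and H2-DMb1, and also in H2-Ob and H2-DMb2, against 0.539% of all promoters. H2-Aa had TGACGTCA, the cyclic AMP response element that CREB proteins bind, at the same place, against 1.55% of all promoters. Both of the latter patterns were picked after these sequences had been read. Capitals below mark first that stretch (in H2-Aa the cyclic AMP response element) and then the Y box core, which were separated by 17 to 20 bases.
H2-Aa (chr17:34287847-34287927, minus strand): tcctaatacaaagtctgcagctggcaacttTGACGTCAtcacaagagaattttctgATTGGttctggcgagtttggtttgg
H2-Eb1 (chr17:34305748-34305832, plus strand): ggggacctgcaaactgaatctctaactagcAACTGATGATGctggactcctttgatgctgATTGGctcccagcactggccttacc
H2-DMb1 (chr17:34153069-34153154, plus strand): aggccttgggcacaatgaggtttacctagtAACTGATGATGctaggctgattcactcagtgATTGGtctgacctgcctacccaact
H2-Ob (chr17:34238790-34238872, plus strand): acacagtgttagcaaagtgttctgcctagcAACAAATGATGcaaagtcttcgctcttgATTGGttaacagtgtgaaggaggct
The Y box core lay 48, 59, 61 and 57 bases before the start in H2-Aa, H2-Eb1, H2-DMb1 and H2-Ob. H2-Eb1 held another, on the minus strand, at 35 bases. In H2-DMa the core lay 198 bases before the second start, and neither of the other marked patterns was found. The RefSeq start of H2-DMb1, 34153191, lies inside the gene span given above, and all but the first 3 bases of its window do too. A match is a description of letters and not a bound site.

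The microRNA deleted in the KO mice is shown with its seed (bases 2 to 8) in capitals, because a transcript with the matching site could be read by it directly.
mmu-miR-34a-5p (chr4:150068473-150068494, plus strand, GRCm38.p6): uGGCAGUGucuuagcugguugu
The matching site CACTGCC was searched in the annotated 3' UTRs. Of the 7 genes, 1 held it (Ciita, in 1 of 5 transcripts), against 21% of the 14734 tested genes with a 3' UTR. Cd74, the I-A, H2-Eb1 and H2-DM genes, H2-Oa and H2-Ob held none.

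Cd74 encodes the invariant chain. In WT Non-Tg mice it measured 12.05, 4.61, 11.6, 3.796 and 14.2 CPM (replicates 2, 3, 4, 6 and 7), and in KO Non-Tg mice 9.08, 9.24, 2.60, 3.93 and 3.87 CPM (replicates 1, 2, 4, 7 and 8). In WT Tg-SwDI mice it measured 43.6, 79.8, 39.98, 50.2 and 47.5 CPM (replicates 3 to 7), and in KO Tg-SwDI mice 143.8, 51.6, 109.5, 72.5 and 89.5 CPM (replicates 1, 2, 3, 5 and 8). Every Tg-SwDI mouse lay above every Non-Tg mouse, while the WT and KO mice overlapped within each transgene state. Means without the transgene were 9.26 ± 4.73 CPM (WT) and 5.74 ± 3.16 CPM (KO), and with it 52.2 ± 15.9 CPM (WT) and 93.4 ± 35.4 CPM (KO) (SD, n = 5).

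H2-Aa, the I-A alpha chain, followed the same order. It measured 4.87, 1.64, 6.57, 2.25 and 9.78 CPM in WT Non-Tg and 5.07, 3.65, 1.21, 2.16 and 1.98 CPM in KO Non-Tg mice. It measured 17.1, 31.9, 16.9, 20.5 and 18.1 CPM in WT Tg-SwDI and 58.5, 16.6, 43.3, 25.9 and 34.004 CPM in KO Tg-SwDI mice. The Tg-SwDI mice again lay above all Non-Tg mice. WT Non-Tg replicate 7, WT Tg-SwDI replicate 4 and KO Tg-SwDI replicate 1 each stood highest in their group for Cd74 and H2-Aa alike.

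H2-Ab1, the I-A beta chain that pairs with H2-Aa, measured 3.54, 1.39, 3.38, 1.25 and 6.25 CPM in WT Non-Tg and 3.82, 3.74, 0.772, 1.92 and 1.35 CPM in KO Non-Tg mice. In WT Tg-SwDI mice it measured 11.3, 21.9, 11.3, 12.5 and 15.01 CPM, and in KO Tg-SwDI mice 36.4, 12.98, 26.8, 17.1 and 22.2 CPM. All 10 Tg-SwDI mice lay above all 10 Non-Tg mice. The levels of the chains of I-A were close on a per-length scale, as given below.

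H2-Eb1, the I-E beta chain, measured 2.41, 0.694, 3.75, 1.35 and 5.34 CPM in WT Non-Tg and 2.68, 1.99, 0.675, 0.815 and 1.02 CPM in KO Non-Tg mice. It measured 5.16, 12.5, 5.94, 6.71 and 7.31 CPM in WT Tg-SwDI and 21.001, 5.21, 13.9, 8.30 and 10.6 CPM in KO Tg-SwDI mice. Here 1 WT Non-Tg mouse (replicate 7) overlapped the lowest WT Tg-SwDI mouse, while the KO groups were separate. The partner I-E alpha gene, annotated as H2-Ea-ps, had 0 counts in all 20 mice, and C57BL/6 mice are known to lack that chain. Reads shared between H2-Eb1 and its relative H2-Eb2, which had at most 1 count in any mouse, cannot be told apart from the table.

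H2-DMa, one chain of the peptide exchanger, was comparatively even. It measured 14.1, 11.9, 12.8, 10.99 and 11.9 CPM in WT Non-Tg mice and 10.5, 11.5, 11.9, 10.7 and 12.1 CPM in KO Non-Tg mice. With the transgene it measured 15.2, 19.3, 17.8, 16.7 and 17.4 CPM in WT mice and 23.5, 18.6, 19.8, 17.7 and 20.96 CPM in KO mice. Its partner H2-DMb1 had 2.32, 1.39, 2.91, 1.60 and 3.05 CPM in WT Non-Tg mice, 1.91, 1.90, 1.74, 1.49 and 1.45 CPM in KO Non-Tg mice, 4.41, 5.44, 4.91, 4.97 and 4.21 CPM in WT mice with the transgene, and 6.48, 5.47, 6.57, 4.46 and 4.02 CPM in KO mice with it. Both H2-DM chains were separate between Tg-SwDI and Non-Tg mice in both miR-34a states. H2-DMb1 values are uncertain where reads also match the near-identical H2-DMb2, which had 3 to 12 counts per mouse.

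Ciita had only 13 to 35 counts per mouse. It measured 1.04, 0.793, 1.13, 0.849 and 1.05 CPM in WT Non-Tg mice, 0.860, 0.995, 1.11, 0.911 and 0.967 CPM in KO Non-Tg mice, 1.13, 1.32, 1.37, 0.966 and 1.48 CPM in WT mice with the transgene, and 1.66, 1.51, 1.06, 0.973 and 0.715 CPM in KO mice with it. All 4 groups overlapped. The lowest value of all belonged to KO Tg-SwDI replicate 8, the library rich in mitochondrial counts.

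**Figure D1:**
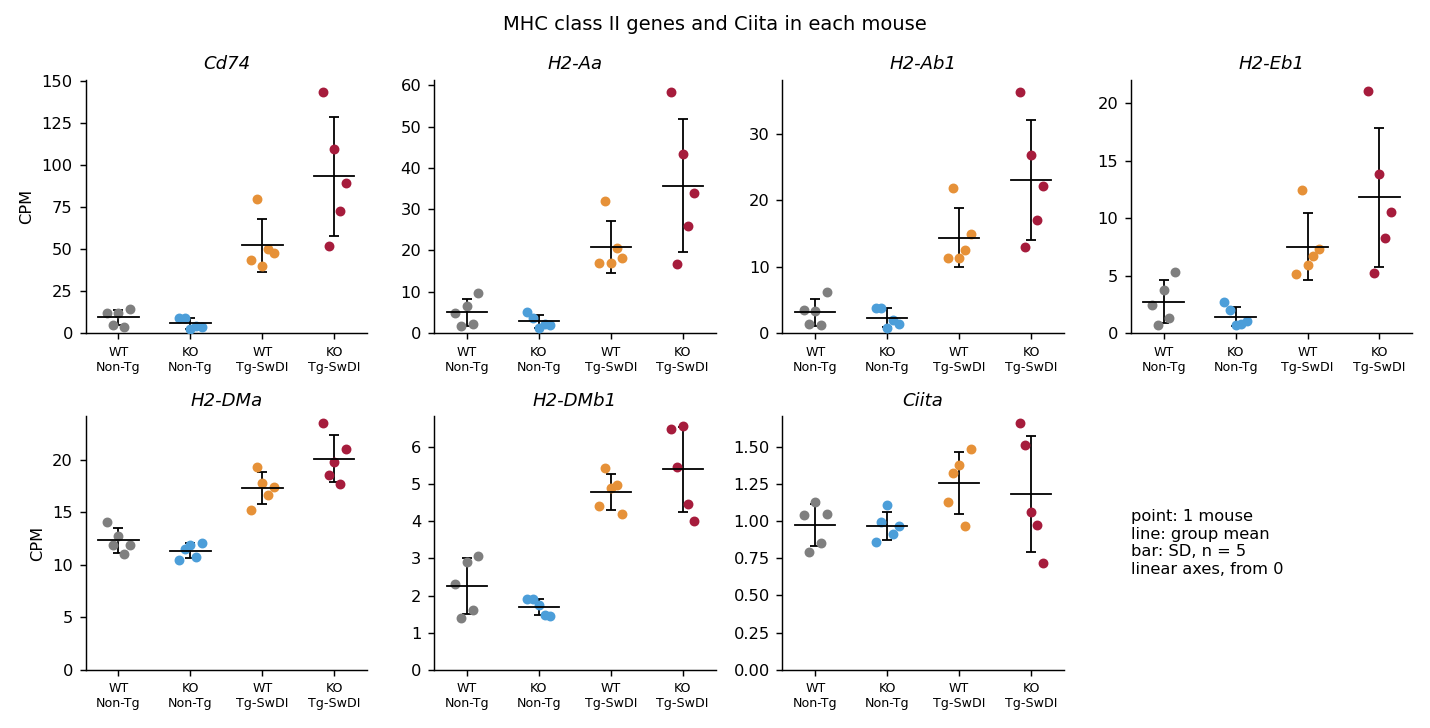
CPM of each gene (vertical axes, linear from 0) in the 4 groups, with 1 point for each mouse, the group mean as a line and the SD as a bar (n = 5). The Tg-SwDI points of Cd74 sit between 39.98 and 143.8 CPM, above all Non-Tg points, while those of Ciita span 0.715 to 1.66 CPM and overlap the Non-Tg points.

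To compare genes with each other, levels were divided by the length of the union of their exons. In KO Tg-SwDI mice Cd74 reached 55.6 ± 21.07 CPM per kb, followed by H2-Aa at 9.39 ± 4.24, H2-Ab1 at 8.99 ± 3.54, H2-Eb1 at 6.06 ± 3.11, H2-DMa at 5.83 ± 0.655, H2-DMb1 at 3.21 ± 0.687 and Ciita at 0.124 ± 0.0409 CPM per kb (SD, n = 5). The range of Cd74 over mice lay above that of H2-Aa, and the ranges of neighbours from H2-Aa to H2-DMa overlapped. In WT Non-Tg mice the order differed, with Cd74 at 5.52 ± 2.82 and H2-DMa at 3.57 ± 0.339 CPM per kb overlapping at the top. H2-Eb1, H2-DMb1, H2-Aa and H2-Ab1 followed in WT Non-Tg mice between 1.23 and 1.39 CPM per kb with overlapping ranges, and Ciita was at 0.102 ± 0.0150 CPM per kb. The lengths come from an annotation release newer than the one behind the counts, so these levels are approximate.

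**Figure D2:**
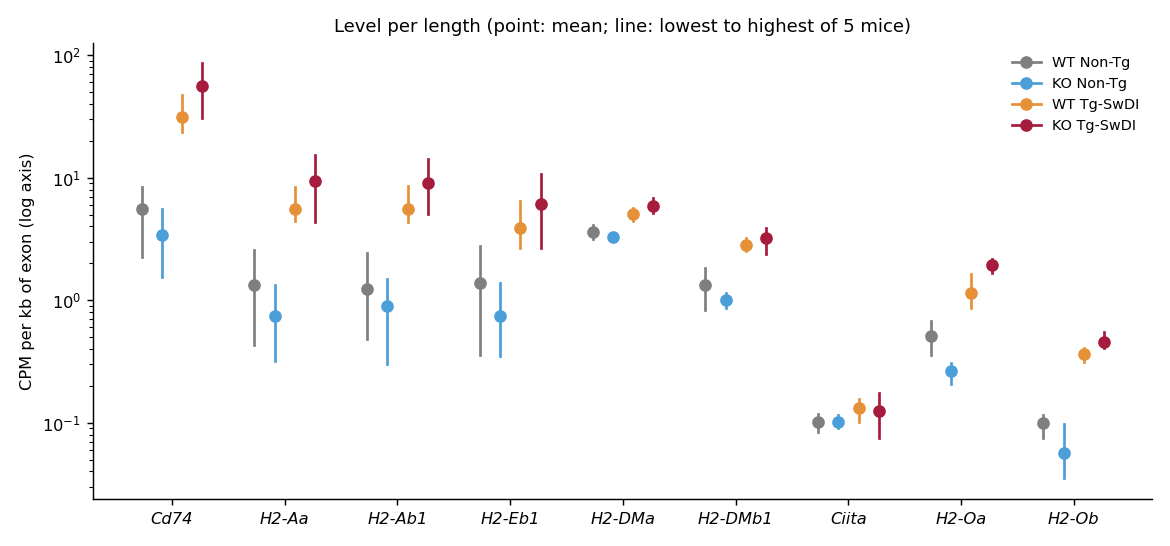
CPM per kb of exon (log axis) for the 7 genes and for H2-Oa and H2-Ob, with the mean as a point and the lowest to highest of 5 mice as a line, in the 4 groups. Cd74 in KO Tg-SwDI mice averages 55.6 CPM per kb, and Ciita stays between 0.102 and 0.132 CPM per kb in the group means.

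The comparison of Tg-SwDI with Non-Tg mice asks what the amyloid transgene changed within each miR-34a state. All 20 mice entered 1 quasi-likelihood fit in edgeR, and genes with an FDR under 0.05 (adjusted over all 16107 by Benjamini and Hochberg) were called. In KO mice 6 of the 7 genes were called higher, against 12.5% of all genes tested, and the same 6 did not overlap between the groups, against 8.46% of all genes. Cd74 rose 16.2-fold (log2 fold change 4.02, SE 0.42, adjusted p = 2.01e-06), H2-Aa 12.7-fold (3.66, SE 0.47, adjusted p = 2.59e-05), H2-Ab1 9.92-fold (3.31, SE 0.45, adjusted p = 4.13e-05) and H2-Eb1 8.20-fold (3.04, SE 0.51, adjusted p = 0.000422). The H2-DM chains rose less, H2-DMb1 3.18-fold (1.67, SE 0.18, adjusted p = 1.36e-07) and H2-DMa 1.77-fold (0.83, SE 0.08, adjusted p = 2.92e-08), although H2-DMa was lower on the microglia marker scale given below. Choroid plexus markers rose in the same comparison (13 of 15 called higher, against the same 12.5%), and values with their level as a covariate are given below. Ciita was not called, at 1.23-fold (log2 0.30, 95% interval -0.14 to 0.73, adjusted p = 0.342). In bulk tissue a change in the number of cells that hold a transcript and a change in the RNA of each cell cannot be told apart.

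In WT mice 5 of the 7 genes were called higher by the same test, against 3.94% of all genes, and the same 5 did not overlap, against 5.1% of all genes. Cd74 rose 5.61-fold (log2 2.49, SE 0.39, adjusted p = 0.000516), H2-Ab1 4.52-fold (2.18, SE 0.43, adjusted p = 0.00440), H2-Aa 4.14-fold (2.05, SE 0.44, adjusted p = 0.00889), H2-DMb1 2.11-fold (1.08, SE 0.18, adjusted p = 0.000164) and H2-DMa 1.40-fold (0.49, SE 0.08, adjusted p = 0.000262). On the microglia marker scale given below H2-DMb1 lost its call (0.22, adjusted p = 0.203 by edgeR) and H2-DMa was lower (-0.38). H2-Eb1 was at 2.76-fold without passing (log2 1.46, SE 0.48, adjusted p = 0.117), and it passed without WT Non-Tg replicate 7 (log2 1.86, adjusted p = 0.0410). Ciita was at 1.29-fold (log2 0.36, 95% interval -0.06 to 0.79, adjusted p = 0.432). The median log2 fold change of the 7 genes was 1.46 in WT and 3.04 in KO mice, beside 3.21e-05 and -0.00483 for all genes tested.

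**Figure D3:**
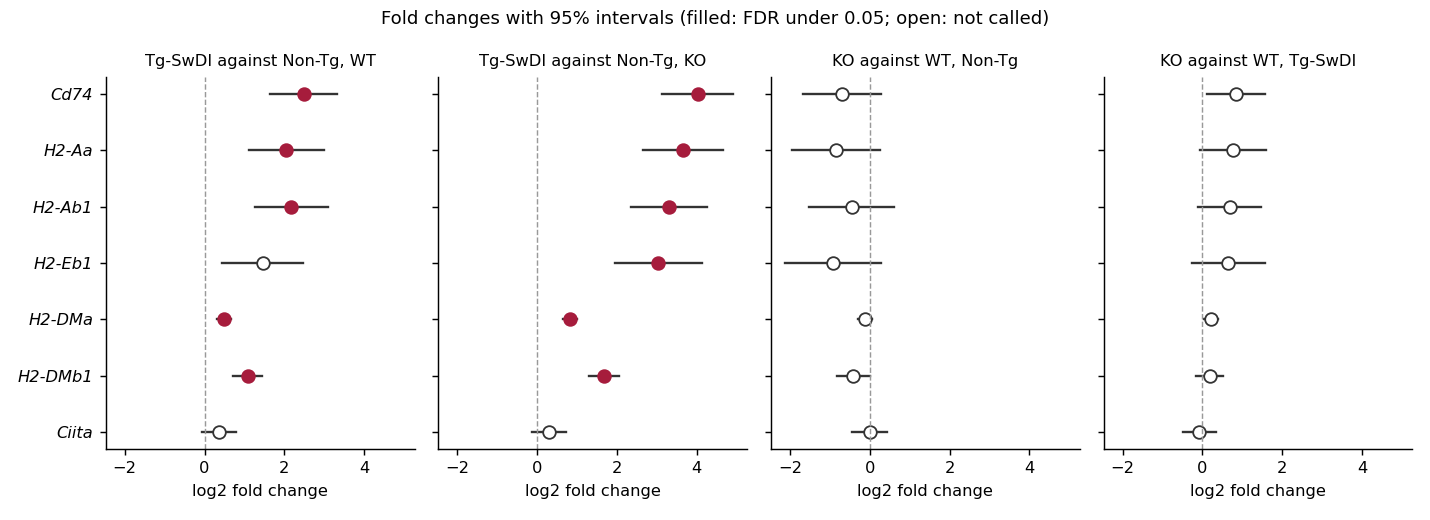
Log2 fold change (horizontal axes) of each gene in the 4 comparisons between pairs of groups, with the 95% interval as a line and a filled point where the gene was called. In KO mice all but Ciita are called higher in Tg-SwDI, with Cd74 at 4.02 (H2-DMa turns direction relative to microglia markers), and no point is filled for KO against WT.

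Removing the miR-34a gene was compared next, within each transgene state. These comparisons use the same mice as those above, so their values are not independent of them. In Tg-SwDI mice 0 of the 7 genes were called for KO against WT by edgeR's quasi-likelihood test, by its exactTest or by DESeq2. Of all genes, these tools called 1.99%, 3.51% and 4.55% in either direction (the first called 1.48% higher). None of the 7 was free of overlap, against 2.04%. The log2 fold changes were 0.84 for Cd74 (95% interval 0.11 to 1.57, adjusted p = 0.199), 0.77 for H2-Aa (-0.05 to 1.60), 0.68 for H2-Ab1 (-0.11 to 1.48), 0.65 for H2-Eb1 (-0.26 to 1.56), 0.22 for H2-DMa (0.05 to 0.39), 0.18 for H2-DMb1 (-0.16 to 0.52) and -0.08 for Ciita (-0.49 to 0.34). At an unadjusted p under 0.05, 2 of the 7 passed, Cd74 and H2-DMa, against 18.9% of all genes.

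In Non-Tg mice 0 of the 7 genes were called for KO against WT by the same tools, which called 0%, 0.0248% and 0.0435% of all genes in either direction, and all 7 estimates were below 0. None lay wholly below in the KO mice, against 0.888% of all genes. The choroid plexus markers had a median of -2.43 there with 0 of 15 called, and with their level as a covariate Cd74 moved from -0.69 to -0.20, H2-Aa from -0.84 to -0.23, H2-Ab1 from -0.45 to -0.018, H2-Eb1 from -0.92 to -0.35 and H2-DMb1 from -0.41 to -0.22. Estimates ran from -0.92 for H2-Eb1 (95% interval -2.12 to 0.28) to -0.01 for Ciita (-0.45 to 0.43), with H2-DMa at -0.12, and 1 gene, H2-DMb1 at -0.41, passed an unadjusted p under 0.05, against 8.08% of all genes. The interaction, which asks whether the Tg-SwDI difference depended on miR-34a, was called for 0 of the 7 genes by the quasi-likelihood test and by DESeq2, which called 0.608% and 2.97% of all genes in either direction (the first called 0.428% higher). It was positive for the 6 genes other than Ciita, with 1.53 for Cd74 (SE 0.57, adjusted p = 0.189), 1.61 for H2-Aa (SE 0.65, adjusted p = 0.218), 0.34 for H2-DMa (SE 0.12, adjusted p = 0.143) and 0.59 for H2-DMb1 (adjusted p = 0.240), while Ciita was at -0.07. At an unadjusted p under 0.05, 5 of the 7 passed, against 17.5% of all genes. The choroid plexus markers had a median interaction of 2.45 with 0 of 15 called, and with their level as a covariate that of Cd74 was 1.03, of H2-Aa 0.995, of H2-Ab1 0.69 (from 1.13) and of H2-Eb1 0.99 (from 1.57). A larger fold change in KO than in WT mice was thus not established for any of the 7 genes.

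The other class II genes of the list were the H2-O chains and their relatives. H2-Oa and H2-Ob, which form the brake on H2-DM, passed the filter, while H2-DMb2, H2-Eb2 and H2-Ea-ps did not. H2-Oa measured 0.945, 0.842, 0.704, 0.499 and 0.572 CPM in WT Non-Tg and 0.430, 0.379, 0.289, 0.384 and 0.387 CPM in KO Non-Tg mice. It measured 1.22, 2.32, 1.86, 1.35 and 1.34 CPM in WT Tg-SwDI and 3.03, 2.76, 2.99, 2.36 and 2.53 CPM in KO Tg-SwDI mice. The 4 groups did not overlap for H2-Oa, with KO below WT among Non-Tg mice and KO above WT among Tg-SwDI mice, although a mouse held only 6 to 64 counts of it. Of all genes, 0.888% lay wholly lower in KO among Non-Tg mice and 2.04% wholly higher among Tg-SwDI mice. With the transgene 8.46% (KO) and 5.1% (WT) lay wholly higher.

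H2-Oa was called higher in 4 fits, against 12.5%, 3.94%, 1.48% and 0.428% of all genes in the order given next. It rose with the transgene by a log2 of 2.85 in KO (SE 0.22, adjusted p = 2.18e-10) and 1.17 in WT mice (SE 0.21, adjusted p = 0.000386, but 0.31 relative to microglia markers, adjusted p = 0.179), among Tg-SwDI mice KO exceeded WT by 0.76 (SE 0.18, adjusted p = 0.0277), and its interaction was 1.68 (SE 0.31, adjusted p = 0.0199, but 1.62 and adjusted p = 0.0510 with the replicate block, and no adjusted p from DESeq2). In Non-Tg mice KO against WT was -0.92 (SE 0.26) without passing (adjusted p = 0.508). The call for KO against WT in Tg-SwDI mice was lost with the compared 10 mice alone (adjusted p = 0.0920), with the replicate block (log2 0.58, adjusted p = 0.423) and without any 1 of 4 mice (WT Tg-SwDI replicate 3, 6 or 7 or KO Tg-SwDI replicate 3), at an adjusted p of up to 0.0860. H2-Ob had 0.567, 0.595, 0.469, 0.400 and 0.620 CPM in WT and 0.526, 0.190, 0.289, 0.336 and 0.193 CPM in KO mice without the transgene, and 1.97, 1.80, 2.21, 1.69 and 2.20 CPM in WT and 2.98, 2.29, 2.32, 2.46 and 2.20 CPM in KO mice with it, so WT and KO overlapped in both states. H2-Ob rose by 2.98 in KO (SE 0.22, adjusted p = 8.70e-11) and 1.88 in WT mice (SE 0.20, adjusted p = 2.26e-07), and its interaction of 1.09 did not pass (adjusted p = 0.0932).

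**Figure D4:**
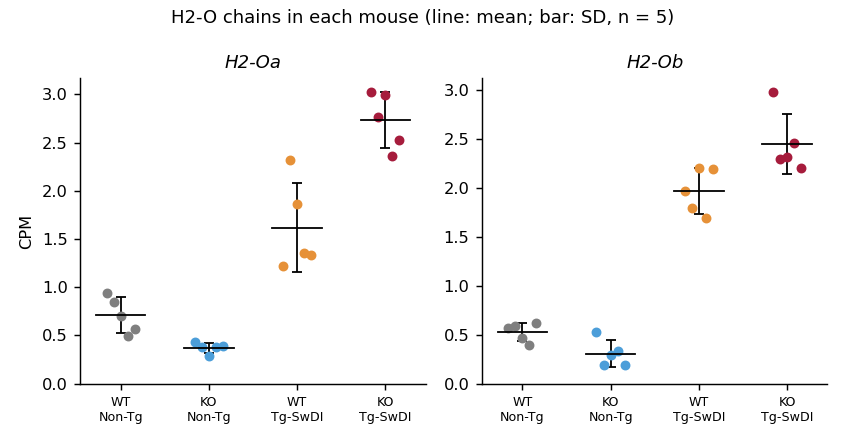
CPM of H2-Oa and H2-Ob (vertical axes, linear from 0) in the 4 groups, with 1 point for each mouse, the mean as a line and the SD as a bar (n = 5). The KO Tg-SwDI points of H2-Oa sit between 2.36 and 3.03 CPM, just above the highest WT Tg-SwDI point at 2.32 CPM.

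The factors that sit with Ciita on class II promoters were tested in the same fits. Of 7 promoter factors (Rfx5, Rfxap, Rfxank, Nfya, Nfyb, Nfyc and Creb1), 0 were called in any of the 5 fits by the quasi-likelihood test, which called 20.8% of all genes in either direction with the transgene in KO mice, 4.41% in WT mice and at most 1.99% in the other fits. For Tg-SwDI against Non-Tg 3 passed an unadjusted p under 0.05 in KO and 2 in WT mice, against 33.5% and 15.2% of all genes. DESeq2 called 1 in each, 1 for KO against WT in Tg-SwDI mice and 1 for the interaction, and the exactTest 1 in WT mice. Their log2 fold changes for Tg-SwDI against Non-Tg lay between -0.21 and 0.20 in KO and between -0.05 and 0.25 in WT mice. Rfx5, the DNA-binding subunit of RFX, measured 25.7 ± 1.24 CPM (WT) and 24.7 ± 0.738 CPM (KO) without the transgene and 25.4 ± 1.27 CPM (WT) and 26.5 ± 4.56 CPM (KO) with it (SD, n = 5). Of the interferon-gamma route upstream of Ciita, the receptor gene Ifngr1 rose by a log2 of 0.63 in KO (adjusted p = 5.25e-06) and 0.32 in WT mice (adjusted p = 0.0324 by the same edgeR test). Irf1 rose by 0.37 in KO mice (adjusted p = 0.0229 by that test). Relative to microglia markers Ifngr1 (-0.62 in KO, -0.56 in WT) and Irf1 (-0.88, -0.52) were below 0. That scale moved the median of all genes to -1.25 in KO and -0.87 in WT mice. Irf1 lost its call with the choroid plexus covariate (0.32, adjusted p = 0.179 by edgeR) and without KO Non-Tg replicate 7 (adjusted p = 0.0631) or KO Tg-SwDI replicate 1 (adjusted p = 0.0703). Ifngr1 in WT mice lost its call with that covariate (adjusted p = 0.0536 by edgeR), with library size alone (adjusted p = 0.0521) and without any 1 of 7 mice (WT Non-Tg replicates 2, 3, 4 and 6 and WT Tg-SwDI replicates 4, 5 and 6, adjusted p up to 0.114). Ifng itself had at most 3 counts in any mouse and was not tested.

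Genes that process the invariant chain or regulate class II turnover were called higher in 7 of 8 cases in KO mice and 6 of 8 in WT mice, against 12.5% and 3.94% of all genes. Ctss, the cathepsin that makes the late cuts in Cd74, rose from 56.6 ± 3.61 to 256 ± 54.1 CPM in KO mice (log2 2.18, SE 0.14, adjusted p = 1.66e-09) and from 77.7 ± 15.1 to 207 ± 18.96 CPM in WT mice (log2 1.42, SE 0.14, adjusted p = 1.14e-06). Ctsd, an abundant endosomal protease, rose by 2.13 in KO and 1.46 in WT mice. For KO against WT in Tg-SwDI mice 3 of 8 were called higher, against 1.48% of all genes, Ctsd (0.40, adjusted p = 0.0212), Ctsb (0.29, adjusted p = 0.00182) and Lgmn (0.21, adjusted p = 0.0401) by edgeR. Relative to microglia markers, where the median of all genes was -0.31, Ctsb and Lgmn were below 0. On that scale Ctsd was at 0.092 without passing (adjusted p = 0.375 by edgeR). Ctsd also lost the call without WT Tg-SwDI replicate 3 or 7 or KO Tg-SwDI replicate 8, at an adjusted p of up to 0.0692. Lgmn lost the call under 10 of 30 alternatives (adjusted p up to 0.234 by edgeR), among them library size alone and the compared mice alone. March1, the ligase that removes class II from the surface, was not called (log2 -0.16 in KO and 0.03 in WT mice). Relative to microglia markers it was at -1.41 and -0.84 and called lower. That scale called 95.4% (KO) and 93% (WT) of all genes in either direction, with medians of -1.25 and -0.87. In KO mice March1 was also called lower by DESeq2 (adjusted p = 0.0390), with RLE factors (adjusted p = 0.0479), with library size alone (adjusted p = 0.0350) and without KO Non-Tg replicate 2 (adjusted p = 0.0159) or KO Tg-SwDI replicate 2 (adjusted p = 0.0468).

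Of 5 tested co-stimulation genes, 2 were called higher in both miR-34a states, against 12.5% of all genes in KO and 3.94% in WT mice. Cd86 rose by a log2 of 1.98 in KO and 1.40 in WT mice, and Cd274, which encodes the inhibitory ligand PD-L1, by 1.48 and 0.91, although relative to microglia markers Cd274 was at 0.22 and 0.04 without passing. Cd40 was called lower in WT mice (1 of 5, against 0.466% of all genes called lower), at 1 to 13 counts per mouse, and lost the call without any 1 of 7 mice (WT Non-Tg replicates 2, 3, 4 and 6 and WT Tg-SwDI replicates 4, 5 and 6, adjusted p up to 0.116). Class I presentation genes, the parallel route to CD8+ T cells, were called higher in 10 of 12 cases in KO and 2 of 12 in WT mice, against 12.5% and 3.94% of all genes, with B2m, the class I light chain, at 1.97 and 0.92 (in WT mice 0.055 relative to microglia markers, adjusted p = 0.701 by edgeR). For KO against WT in Tg-SwDI mice 4 of the 12 class I genes were called higher, against 1.48% of all genes (B2m, Psmb8, Psmb9 and Tapbp). All 4 calls were lost under the replicate block, which called 0.0497% of all genes there. B2m lost this call under 1 of 30 alternatives, and Psmb8, Psmb9 and Tapbp under 13, 12 and 16. B2m also passed the interaction (1.06, adjusted p = 0.0199 by edgeR). That call was lost under the replicate block (adjusted p = 0.0501) and without WT Non-Tg replicate 2, KO Non-Tg replicate 7 or WT Tg-SwDI replicate 7. Whether class I and class II genes differ in their dependence on miR-34a was not tested.

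Markers of cells that can carry class II were measured beside these results. The 14 homeostatic microglia markers were all called higher in both miR-34a states, against 12.5% (KO) and 3.94% (WT) of all genes, and their summed level was 496 ± 44.8 CPM (WT) and 474 ± 14.0 CPM (KO) without the transgene and 964 ± 63.1 CPM (WT) and 1216 ± 131 CPM (KO) with it (SD, n = 5). All 12 plaque-associated microglia markers were called higher as well, with a summed level, led by Axl, of 179 ± 16.1, 175 ± 9.49, 651 ± 51.9 and 910.3 ± 122 CPM in the same order. For KO against WT in Tg-SwDI mice 5 of the 14 and 8 of the 12 were called higher, against 1.48% of all genes. For the interaction 2 of the 14 and 3 of the 12 were called higher by the quasi-likelihood test, against 0.428% of all genes. All 14 and all 12 estimates were above 0 there (medians 0.40 and 0.76). DESeq2 called 5 and 6 for the interaction, against 2.97% of all genes. The part of these microglia levels in the class II differences was not tested beyond the scaling given below. Of the 8 border-associated macrophage markers 0 were called with the transgene by edgeR's tests or DESeq2 in either miR-34a state, where the quasi-likelihood test called 20.8% (KO) and 4.41% (WT) of all genes. At an unadjusted p under 0.05, 2 of the 8 passed in KO and 1 in WT mice, against 33.5% and 15.2% of all genes. For KO against WT in Tg-SwDI mice all 8 estimates were above 0 (median 0.52), with 3 at an unadjusted p under 0.05, against 18.9%. There the exactTest called 1, against 3.51% of all genes, and the other tools 0. For the interaction 7 of the 8 were above 0 (median 0.57), with 1 at an unadjusted p under 0.05, against 17.5%, and 0 called. These markers had summed levels, led by Mrc1, of 11.8 ± 3.30, 12.7 ± 4.43, 10.5 ± 2.17 and 14.6 ± 4.48 CPM. Of 5 tested dendritic cell markers 0 were called higher and 1, Zbtb46, lower in KO mice by the quasi-likelihood test (8.31% of all genes were called lower there), a call lost with the choroid plexus covariate (adjusted p = 0.0986). In either direction the exactTest called 2 of the 5 and DESeq2 1 there, against 21.4% and 22.5% of all genes. DESeq2 also called 1 for KO against WT in Tg-SwDI mice, against 4.55%. The defining dendritic cell markers Xcr1 and Ccr7 had at most 3 counts in any mouse, and the B cell marker Ms4a1 at most 4. Among T cell markers, Cd3d had at most 4 counts, Cd3e at most 8 and Cd4 at most 15. Cd3g had 0 to 2 counts in KO Non-Tg and 3 to 8 in KO Tg-SwDI mice, and Cd8a 0 to 3 and 5 to 7. In WT mice Cd3g had 1 to 6 counts without the transgene and 0 to 11 with it, and Cd8a 0 to 8 and 2 to 5. None of these genes was tested. Trac was called higher in KO mice (log2 0.82, adjusted p = 0.0245 by edgeR) at 8 to 36 counts per mouse. It was at -0.41 relative to microglia markers, where the median of all genes was -1.25. Trac lost the call without any 1 of 3 mice (KO Non-Tg replicate 4 or 7 or KO Tg-SwDI replicate 8), at an adjusted p of up to 0.0769 by edgeR. With the choroid plexus covariate Trac was at 0.76 and also lost the call (adjusted p = 0.168 by edgeR). Lag3, a ligand of class II also known in microglia, rose from 5.56 ± 0.999 to 45.7 ± 4.41 CPM in KO mice (log2 3.04, SE 0.19, adjusted p = 6.16e-10) and from 8.61 ± 3.32 to 33.4 ± 4.84 CPM in WT mice (log2 1.95, SE 0.18, adjusted p = 4.40e-07), and made up most of that list's summed level.

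Scaled to the 14 homeostatic microglia markers instead of to the library, the median of all genes tested moved to -1.25 in KO and -0.87 in WT mice. On that scale Cd74 was at 2.77 (SE 0.41), H2-Aa at 2.41, H2-Ab1 at 2.06, H2-Eb1 at 1.79 and H2-DMb1 at 0.41 in KO mice, all called higher, against 1.36% of all genes called higher. In WT mice Cd74 (1.64), H2-Ab1 (1.33) and H2-Aa (1.1998) were called higher, against 0.9% of all genes, and H2-Eb1 (0.61) and H2-DMb1 (0.22) were not. H2-DMa and Ciita turned direction on that scale, to -0.42 and -0.97 in KO and to -0.38 and -0.50 in WT mice. Cd74 and the I-A chains thus rose by more than the homeostatic markers did, and H2-DMa by less. The plaque-associated markers had median log2 fold changes of 3.67 in KO and 2.92 in WT mice on the library scale, where Cd74 was at 4.02 and 2.49 and H2-Ab1 at 3.31 and 2.18, and that difference was not tested.

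The choroid plexus markers were called in 1 of the 5 fits. In KO mice 13 of the 15 were called higher in Tg-SwDI, against 12.5% of all genes (median log2 fold change 2.999). In WT mice 0 of 15 were called by edgeR's tests or DESeq2, where the quasi-likelihood test called 3.94% of all genes higher, and 0 passed an unadjusted p under 0.05, against 15.2% of all genes. For KO against WT in Non-Tg mice all 15 estimates were below 0 (median -2.43) and for the interaction all 15 were above 0 (median 2.45), with 15 and 9 at an unadjusted p under 0.05, against 8.08% and 17.5% of all genes, and 0 called by edgeR or DESeq2. With their mean log2 CPM as a covariate, 6 and 5 of the 7 class II genes were called in KO and WT mice, against 7.49% and 4.33% of all genes called in that fit. Cd74 was then at 3.44 and 2.41, and in KO mice H2-Aa moved from 3.66 to 2.96 and H2-Eb1 from 3.04 to 2.38 (adjusted p = 0.0122 by edgeR). WT Tg-SwDI replicate 7 and KO Tg-SwDI replicate 2, both low in choroid plexus markers (mean log2 CPM 2.12 and 2.14), had 47.5 and 51.6 CPM of Cd74, while the 7 Non-Tg mice at 3.11 or lower had 2.60 to 9.24 CPM. Without KO Tg-SwDI replicate 8, Cd74 was at 4.04 in KO mice, and 6 of the 7 genes were called, against 18.9% of all genes in that fit.

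**Figure D5:**
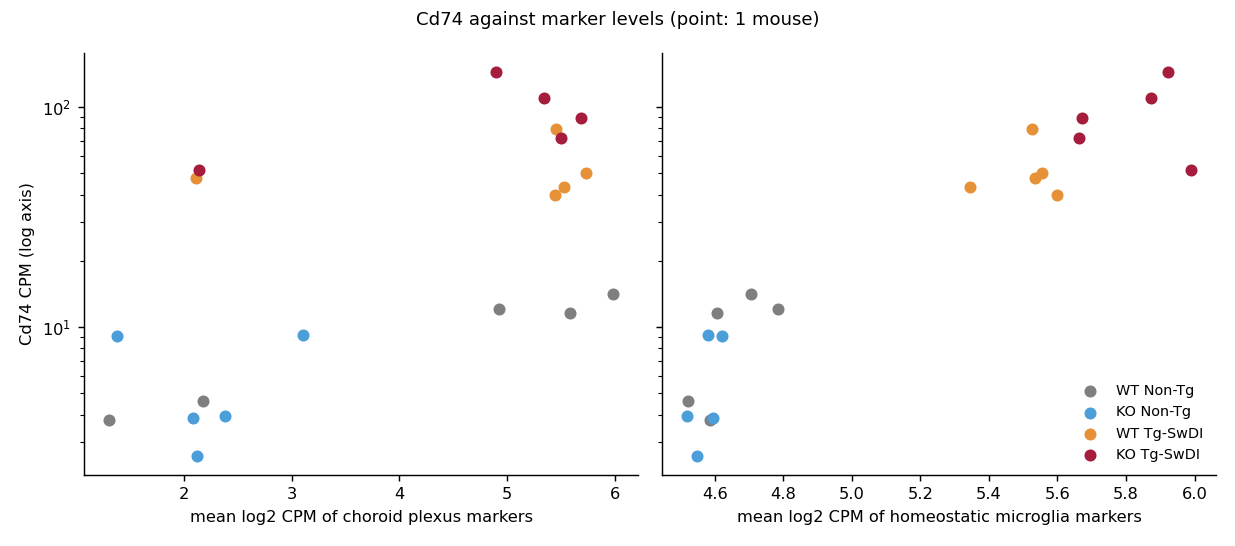
Cd74 CPM (log axis) against the mean log2 CPM of choroid plexus markers (left) and of homeostatic microglia markers (right), with 1 point for each mouse in the 4 groups. The 2 Tg-SwDI mice low in choroid plexus markers, at 47.5 and 51.6 CPM, lie above all Non-Tg mice, and the KO Tg-SwDI mouse highest in microglia markers has the lowest Cd74 of its group.

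Within groups the class II chains varied together from mouse to mouse. After each gene's log2 CPM was centred on its group mean, Pearson's r over the 20 mice, whose libraries also share depth and marker content, was 0.92 to 0.98 among Cd74, H2-Aa, H2-Ab1 and H2-Eb1. Cd74 was at r = 0.72 with H2-DMb1, 0.42 with H2-DMa and 0.16 with Ciita. Deviations of Cd74 were at r = 0.59 with the choroid plexus level and 0.32 with the homeostatic microglia level, while those of Ciita were at -0.13 and 0.65. Outside the 7 genes, those most like Cd74 on this measure were Ifitm3 (r = 0.89, Spearman's rho 0.87), Il17rc (0.87, 0.82), Tgfbi (0.86, 0.86), Shc1 (0.86, 0.88) and Efemp2 (0.85, 0.81). Ifitm3 has near-identical relatives, so its counts are uncertain.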

How the data were processed

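Stranded mRNA libraries of 20 hippocampi were sequenced at BGI Tech Solution. Reads were aligned to mm10 with STAR and counted on ENSEMBL genes with featureCounts, and the values deposited are raw read counts per gene without normalization. Versions, the strand setting and the treatment of reads matching several genes are not given in the sources used here. Groups came from the genotype labels, and 0 columns lacked a sample. Gene identifiers, matched without their version, gave symbols for 38872 of 39056 genes.

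Counts were tested with edgeR 4.0.16 (R 4.3.3, limma 3.58.1): TMM factors, filterByExpr (minimum count 10, total 15), 1 robust quasi-likelihood fit over 4 group means and Benjamini-Hochberg adjustment over 16107 genes. Log2 CPM used a prior count of 2. All 7 genes were named in every comparison. From other lists up to 4 called genes were named, by size of change, or all tested genes. The 7 genes and all lists were chosen with earlier results of these data known. Alternatives were DESeq2 1.42.0, the exactTest, RLE factors, library size alone, 2 other filters, the compared mice alone, a replicate block, a choroid plexus covariate, scaling to microglia markers and each mouse left out; those for genes beside the 7 were chosen after seeing the data. Some genes of the lists are not reported here. Scripts were tested on simulated data. Figures used Python 3.11.15 and matplotlib 3.10.9. Since 1 library was made from each mouse, n counts mice.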

Additional observations from a re-analysis of the deposited data

Results flagged for a closer look

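WT Tg-SwDI replicate 4 stood apart from the other 4 mice of its group for Cd74 (79.8 CPM) and H2-Aa (31.9 CPM), with a gap over the 0.71 of the group's range that Dixon's test allows for 5 samples. In all, 36 sets of 5 values were tested this way, of which chance alone marks about 1 in 20. Leaving that mouse out kept Cd74 and H2-Aa called higher in WT mice.

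The difference between the fold changes of KO and WT mice passed for 5 genes beside the 7, by edgeR's test, among those picked for this check. The interaction log2 was 1.06 for B2m (adjusted p = 0.0199), 1.68 for H2-Oa (adjusted p = 0.0199), 0.67 for Ctsd (adjusted p = 0.0199), 0.38 for Ctsb (adjusted p = 0.0146) and 0.37 for Lgmn (adjusted p = 0.0214) by that test. The same fit called 0.428% of all genes higher, and 2 of the 14 homeostatic and 3 of the 12 plaque-associated microglia markers. The interaction of H2-Oa lost its call under the replicate block (1.62, adjusted p = 0.0510), and DESeq2 gave it no adjusted p. The interaction of B2m lost its call under 4 of 28 alternatives (adjusted p up to 0.0533), 3 of them a single mouse left out (WT Non-Tg replicate 2, KO Non-Tg replicate 7 or WT Tg-SwDI replicate 7), and that of Lgmn under 6, among them the choroid plexus covariate (adjusted p = 0.0559), and turned sign under 1. Relative to the homeostatic microglia markers, those of Ctsd and Ctsb were 0.29 (adjusted p = 0.0585) and 0.0088 (adjusted p = 0.954).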

How the results depend on the processing

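The number of class II genes called was 6 or 7 in KO mice and 5 or 6 in WT mice for Tg-SwDI against Non-Tg, and 0 for KO against WT and for the interaction, under every alternative run. Apart from the microglia marker scale, these fits called 7.49% to 23% of all genes in KO and 2.29% to 6.04% in WT mice. For KO against WT they called 0.0497% to 4.55% in Tg-SwDI and at most 0.0435% in Non-Tg mice, and for the interaction 0.0863% to 3.08%. The 7 in KO mice and the 5 in WT mice relative to homeostatic microglia markers include H2-DMa and Ciita, lower there. In either direction that scale called 95.4% (KO) and 93% (WT) of all genes. It called 57.6% for KO against WT in Tg-SwDI mice and 47.5% for the interaction. H2-Eb1 in WT mice passed with the exactTest (adjusted p = 0.0222). Relative to the microglia markers these values turned sign, which follows from the scale's own shift of all genes: H2-DMa -0.42 (KO), -0.38 (WT), -0.091 (KO against WT in Tg-SwDI) and -0.041 (interaction), Ciita -0.97 (KO), -0.50 (WT) and 0.066 (KO against WT in Non-Tg), H2-DMb1 -0.15 (KO against WT in Tg-SwDI), Ifngr1 -0.62 (KO) and -0.56 (WT), Irf1 -0.88 and -0.52, Trac -0.41 (KO), March1 -0.84 (WT), Ctsb -0.013 and Lgmn -0.10 (KO against WT in Tg-SwDI) and Lgmn -0.013 (interaction). With 1 mouse left out, Ciita ran from -0.070 to 0.052 (KO against WT in Non-Tg), -0.23 to 0.055 (KO against WT in Tg-SwDI) and -0.22 to 0.066 (interaction), and the cause was not tested. Replicate numbers did not pair the mice (median r of deviations -0.04 over 16 same-numbered pairs). With the replicate block, 6 and 5 of the 7 genes were called in KO and WT mice, against 15.8% and 4.4% of all genes, with Cd74 at 4.21 and 2.64. In that fit H2-Oa, Ctsd, Ctsb, Lgmn and the 4 class I genes lost their call for KO against WT in Tg-SwDI mice, as did H2-Oa (adjusted p = 0.0510) and B2m (adjusted p = 0.0501) for the interaction. Over all genes the block gave 8 calls for KO against WT in Tg-SwDI mice in place of 320, against 733 by DESeq2, 565 by the exactTest, 58 with the compared mice alone and 561 once the choroid plexus level was a covariate, and that covariate gave 1206 calls in place of 3351 for the transgene in KO mice. For the interaction all genes gave 98 calls, against 479 by DESeq2, 38 with the block and 18 with the covariate. With 1 mouse left out, the interaction gave 14 to 500 calls and KO against WT in Tg-SwDI mice 78 to 701. Without KO Non-Tg replicate 1, the interaction of H2-Ob passed (1.37, adjusted p = 0.0477). Trac in KO mice, Cd40 in WT mice, and Lgmn, Psmb8, Psmb9 and Tapbp for KO against WT each lost their call under several alternatives. With 13 to 35 counts of Ciita per mouse, a small change was not detectable.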
